A study of Mus musculus with 25 samples.

Results

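A set of 9 genes that write, copy or remove DNA methylation was followed through a Drop-seq survey of mouse spermatogenesis: Dnmt1, Dnmt3a, Dnmt3b, Dnmt3l, Uhrf1, Hells, Tet1, Tet2 and Tet3. They were chosen by name, and are 9 of the 29244 gene symbols in the deposited counts of 25 libraries. Drop-seq captures single cells in droplets and reads the 3′ ends of their transcripts, each marked with a unique molecular identifier (UMI), so that a value counts molecules and was not divided by transcript length. Levels are on the counts-per-million scale (CPM), that is, relative to the UMIs of the library or class from genes outside the mitochondrial genome.

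The survey held 48642 barcodes and 65063387 UMIs. A single library of spermatogonia (SPG) was sorted by EGFP from Pouf51-EGFP mice (so spelled in the labels) on day 7, after enzymatic dissociation of testes pooled from several mice. The labels give their background as C57BL/6 and the study's methods name a B6;CBA line, so SPG may differ in background from the other libraries. Single sorted libraries of primary spermatocytes (SPCI), secondary spermatocytes (SPCII) and spermatids (SPD) came from wild-type C57BL/6 mice of 2 months 21 days after mechanical dissociation. Whole testis was profiled in 11 wild-type C57BL/6 libraries (3 months 1 day to 9 months 14 days, WT 1 and WT 2 dissociated enzymatically), 6 Mlh3-/- libraries (B6;129, 2 months 21 days to 8 months 30 days), 2 Cul4a-/- libraries (B6;129, 1 month 18 to 21 days) and 2 CNP eGFP BAC TRAP libraries (C57BL/6, 2 months 14 to 16 days). These are the labels' ages, and the study's sample list gives those of the Cul4a-/- and CNP libraries the other way round. MLH3 acts in meiotic crossing over, CUL4A is a ubiquitin ligase scaffold, and the CNP line carries a tagged ribosomal protein transgene. The labels give both mutants as B6;129, and the study's methods write the Mlh3 line as B6.129. Either way, the mutants' background and their genotype cannot be told apart. A further mutant strain is not analysed here.

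DNA methylation at CpG is copied after replication by DNMT1, which UHRF1 brings to half-methylated sites, and HELLS (also called LSH) is a nucleosome remodeller that opens chromatin to the methylation machinery. New methylation is set by DNMT3A and DNMT3B, and DNMT3L, itself without catalytic activity, stimulates them. TET1, TET2 and TET3 oxidise 5-methylcytosine, a step toward its removal. Male germ cells receive most of their methylation before birth as prospermatogonia, so the libraries here begin after that wave, and spermatogonia must copy the pattern at each division before meiosis.

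Depth set what could be seen. Sorted spermatogonia had a median of 2534.5 UMIs a barcode over 296 barcodes, against 308 in SPCI, 179.5 in SPCII and 346 in SPD, and whole-testis libraries held 357235 to 9745302 UMIs each. Mitochondrial genes took 4.55 to 13.4% of the UMIs of Mlh3-/- libraries and 0.517 to 1.72% of wild-type ones. The same barcode occurred in both libraries of 204 of 300 pairs, at most 27 barcodes (0.902%) in a pair. All 29 spermatogonial markers were detected in SPG, at a summed 6114 CPM, and the sperm protamine genes Prm1 and Prm2 were at 0. All 18 Sertoli markers were found there too, at 2395 CPM. Of its 224 cells that passed the filters, 212 fell in spermatogonia-like, 9 in Sertoli-like and 3 in telocyte-like clusters. SPCII went against its label in part, with 63744 CPM of elongating spermatid markers and 1965 CPM of Leydig markers. SPCI had 188 cells that passed the filters. Whole testis held 2848 of 2876 pachytene-like cells, 246 of 247 leptotene/zygotene-like cells and 3602 of 3610 meiotic division-like cells. Most SPCI cells were thus in none of these clusters, which bear out its label for few cells.

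Of the maintenance genes Hells, Dnmt1 and Uhrf1, the first and second were at high levels in day-7 spermatogonia, and Hells led. Uhrf1 stood below Dnmt3a (263 CPM) and Dnmt3b (161 CPM) in the same library. The maintenance genes as a group were thus not above these enzymes of new methylation. Hells stood at 1420 CPM (95% Poisson interval 1351 to 1492; 1584 UMIs), Dnmt1 at 328 CPM (295 to 364; 366 UMIs) and Uhrf1 at 105 CPM (86.8 to 126; 117 UMIs). Hells was seen in 82.1% of the 296 barcodes (exact binomial interval 77.2 to 86.3), Dnmt1 in 51.7% and Uhrf1 in 29.7%. With 1 library a population there was no test, and the intervals cover counting error only.

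The same genes were low or near the counting limit in the later sorted populations. Hells gave 47.9 CPM in SPCI (5 UMIs), 0 UMIs in SPCII (which allows up to 11.5 CPM) and 4.24 CPM in SPD (1 UMI). Dnmt1 gave 38.3 CPM in SPCI (4 UMIs), 7.66 CPM in SPCII (2 UMIs) and 0 in SPD (up to 12.7 CPM). Both intervals in SPG lay above those of the other 3 populations. Uhrf1 was the exception, at 57.4 CPM in SPCI (21.1 to 125; 6 UMIs), an interval that overlapped that of SPG, and it stood at 23.0 CPM in SPCII (6 UMIs) and 8.49 CPM in SPD (2 UMIs). Cells with at least 300 UMIs outside the mitochondrial genes were thinned to 300, and shallower ones were left out. Hells was then seen in 37.0% of 292 SPG cells, 4.04% of 99 SPCI cells, and 0 of 86 SPCII and 165 SPD cells. SPCI, SPCII and SPD held 199, 398 and 299 barcodes in all. In these deeper cells the order of SPG and SPCI was the same at equal depth. Thinned Dnmt1 was seen in 8.90% of SPG cells and 1.01% of SPCI cells.

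Among the de novo genes, the 2 catalytic enzymes were on in spermatogonia and Dnmt3l was close to absent. Dnmt3a stood at 263 CPM (233 to 295; 293 UMIs) and Dnmt3b at 161 CPM (139 to 187; 180 UMIs), with 48.3% and 34.8% of barcodes positive. Dnmt3l gave 6.28 CPM (2.52 to 12.9) from 7 UMIs. In SPCI neither Dnmt3a nor Dnmt3b had a UMI, which allows up to 28.7 CPM, and in SPCII Dnmt3a gave 7.66 CPM (2 UMIs). Dnmt3l was at 9.57 CPM in SPCI (1 UMI), 15.3 CPM in SPCII (4 UMIs) and 21.2 CPM in SPD (6.89 to 49.5; 5 UMIs). Those 4 intervals overlap one another, so an order of Dnmt3l over the sorted populations was not detectable at this depth. Dnmt3b counts are uncertain, since its duplicate Dnmt3c (listed as Gm14490; chr2:153696652-153729907) lies beside it and reads shared by both were not measured, and genes on the other strand overlap Dnmt3a (Dnmt3aos), Dnmt3b (Dnmt3bos) and Dnmt3l (Aire).

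Of the oxidising enzymes, Tet3 was the one with a clear level in SPG, at 82.5 CPM (66.5 to 101; 92 UMIs; 25% of barcodes). Tet2 gave 7.17 CPM (3.10 to 14.1; 8 UMIs) and Tet1 3.59 CPM (0.977 to 9.18; 4 UMIs). All 3 were at 0 in SPCI, SPCII and SPD, and for Tet1 and Tet2 those libraries were too shallow to place them below SPG. Keeping only the 212 spermatogonia-like cells of SPG gave 1503 CPM for Hells, 349 for Dnmt1, 260 for Dnmt3a, 165 for Dnmt3b, 104 for Uhrf1 and 77.6 for Tet3. The order of the 6 genes was the same without the Sertoli-like and telocyte-like cells.

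**Figure D1:**
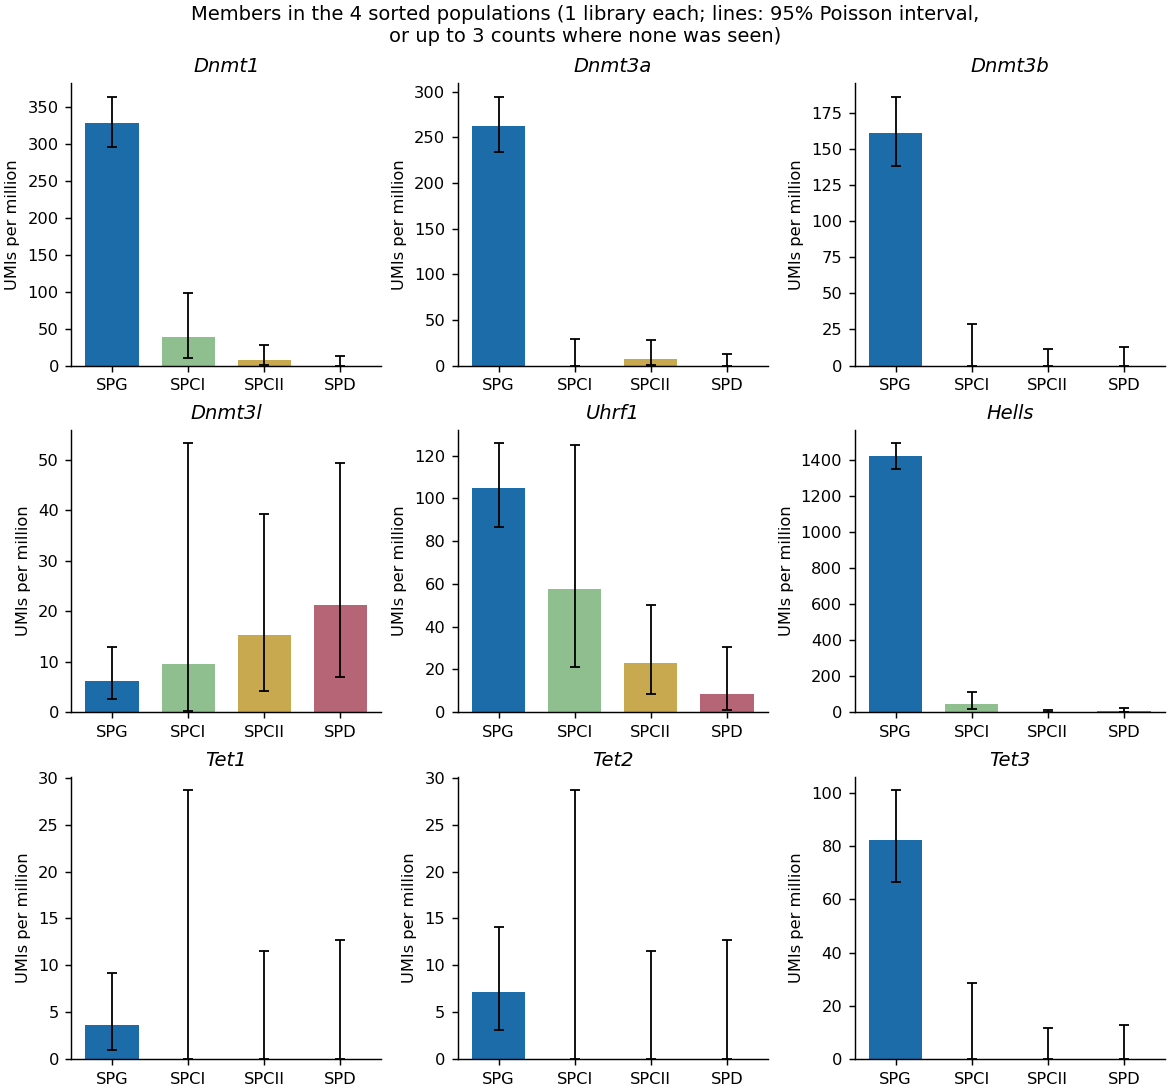
Level of each gene (y axis, CPM) in the 4 sorted libraries (x axis), 1 bar a library with its 95% Poisson interval, drawn up to 3 counts where none was seen. Hells, Dnmt1, Dnmt3a, Dnmt3b and Tet3 in SPG lie above the intervals of SPCI, SPCII and SPD, while Uhrf1 in SPCI and Dnmt3l in every population overlap SPG.

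Most spermatogonia-like cells held UMIs of more than 1 of these genes. The overlap that follows from how often each gene was detected was not computed, so joint regulation is not read from these counts. Of the 212 spermatogonia-like cells, 3 had a UMI of none of the 9 genes, 17 of 1 gene, 47 of 2, 55 of 3, 41 of 4, 37 of 5, 11 of 6 and 1 of 7. A cell had a median of 5 Hells UMIs (at most 37) and of 1 Dnmt1 UMI (at most 12), and free RNA in the droplets can also give a cell a UMI, which was not measured in this library.

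Cells with more transcripts of the replication machinery had more of the maintenance genes. The 212 cells were ordered by the share of their UMIs from a list of 28 replication genes (Mcm2 to Mcm7, Pcna, Rrm1 and others, none of them among the 9) and split into tertiles of 71, 71 and 70 cells. From the lowest to the highest tertile Dnmt1 went from 222 to 413 and 413 CPM, Uhrf1 from 63.8 to 112 and 136 CPM, and Hells from 1094 to 1648 and 1766 CPM. The highest tertile stood 1.86 times, 2.12 times and 1.61 times above the lowest, with intervals that did not overlap for any of the 3. Dnmt3b had a ratio of 1.80, above that of Hells, on 35 and 62 UMIs in the lowest and highest tertile. Its intervals overlapped narrowly, reaching up to 148 CPM in the lowest and down to 146 CPM in the highest. A rise is thus not shown to be particular to the 3 maintenance genes. Dnmt3a had a ratio of 0.646 and Tet3 of 0.491, also with overlapping intervals. These are cells of 1 library, so the ratios are a description. Over every barcode of SPG the ratios for Dnmt1, Uhrf1 and Hells were 2.31, 2.66 and 2.06.

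**Figure D2:**
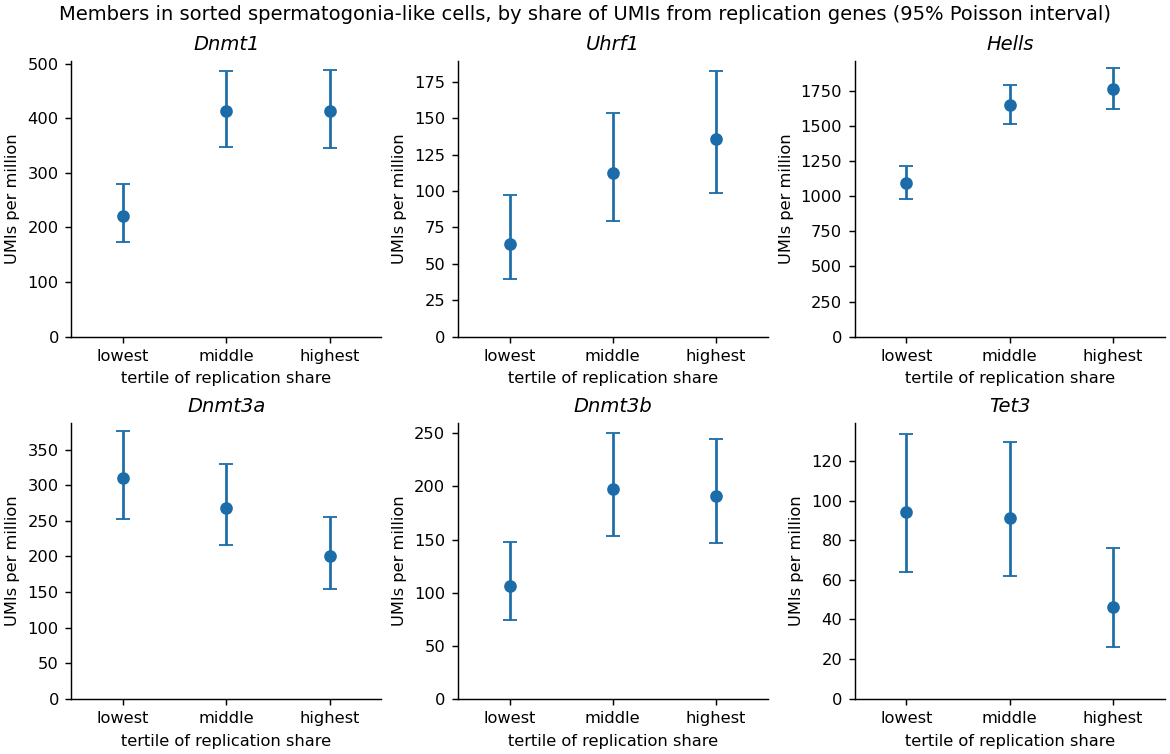
Level (y axis, CPM, from 0) in sorted spermatogonia-like cells against the tertile of the share of UMIs from replication genes (x axis), with 95% Poisson intervals. The 3 maintenance genes in the upper row are higher in the highest tertile than in the lowest, with intervals apart, while those of Dnmt3a, Dnmt3b and Tet3 in the lower row overlap.

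Promoters of the 3 maintenance genes are shown because their messages rose together over the tertiles, as that of Dnmt3b also did within overlapping intervals. Dnmt3l, close to absent from these cells, is shown for contrast. Of several starts of Dnmt1 and of Uhrf1 the one with the most CpG in its window is shown, a choice made after the windows were read. Each is RefSeq sequence of GRCm38.p6, 250 bases before to 50 after a transcription start, on the gene's strand. Capitals mark matches on either strand to the E2F motifs TTTCCCGC and TTTGGCGC or to CCAAT; E2F factors drive many replication genes. Hells lies at chr19:38930915-38971051 (GENCODE vM21) and its promoter at chr19:38930740-38931039 (+).
Hells: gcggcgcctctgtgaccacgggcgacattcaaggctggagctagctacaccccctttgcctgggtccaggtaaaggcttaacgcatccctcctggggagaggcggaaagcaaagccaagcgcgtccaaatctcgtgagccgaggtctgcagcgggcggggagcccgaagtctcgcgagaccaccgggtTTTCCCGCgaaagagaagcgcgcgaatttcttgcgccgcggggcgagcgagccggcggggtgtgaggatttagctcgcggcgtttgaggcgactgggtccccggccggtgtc
Dnmt1 lies at chr9:20907209-20959888 (-), and the promoter of the third of its 3 starts at chr9:20952574-20952873.
Dnmt1: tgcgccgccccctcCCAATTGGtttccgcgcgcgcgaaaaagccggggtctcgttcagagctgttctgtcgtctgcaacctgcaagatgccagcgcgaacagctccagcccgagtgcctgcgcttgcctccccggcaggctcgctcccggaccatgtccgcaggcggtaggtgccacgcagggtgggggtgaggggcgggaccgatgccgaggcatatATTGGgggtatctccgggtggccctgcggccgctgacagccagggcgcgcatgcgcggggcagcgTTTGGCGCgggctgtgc
Uhrf1 lies at chr17:56303321-56323486 (+), and the promoter of the second of its 2 starts at chr17:56304063-56304362.
Uhrf1: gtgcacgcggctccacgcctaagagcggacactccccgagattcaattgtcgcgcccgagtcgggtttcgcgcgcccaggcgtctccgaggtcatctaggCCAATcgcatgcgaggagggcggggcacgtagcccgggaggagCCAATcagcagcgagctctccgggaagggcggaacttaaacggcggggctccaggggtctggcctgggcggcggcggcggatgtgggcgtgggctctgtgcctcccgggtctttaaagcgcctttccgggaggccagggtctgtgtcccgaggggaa
Dnmt3l lies at chr10:78041947-78063622 (+) with 3 starts, whose promoters are at chr10:78042037-78042336, chr10:78049592-78049891 and chr10:78055085-78055384.
Dnmt3l start 1: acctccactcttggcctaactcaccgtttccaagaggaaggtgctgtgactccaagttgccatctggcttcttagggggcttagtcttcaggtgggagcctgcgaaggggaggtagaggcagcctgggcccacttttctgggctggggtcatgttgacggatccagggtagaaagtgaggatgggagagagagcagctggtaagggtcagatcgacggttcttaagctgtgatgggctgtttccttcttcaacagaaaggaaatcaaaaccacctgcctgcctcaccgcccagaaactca
Dnmt3l start 2: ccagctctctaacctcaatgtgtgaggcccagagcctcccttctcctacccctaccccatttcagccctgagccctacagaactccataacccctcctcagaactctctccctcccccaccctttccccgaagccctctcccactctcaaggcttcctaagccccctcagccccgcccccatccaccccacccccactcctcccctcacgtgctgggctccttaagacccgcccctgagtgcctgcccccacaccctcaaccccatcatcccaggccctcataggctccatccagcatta
Dnmt3l start 3: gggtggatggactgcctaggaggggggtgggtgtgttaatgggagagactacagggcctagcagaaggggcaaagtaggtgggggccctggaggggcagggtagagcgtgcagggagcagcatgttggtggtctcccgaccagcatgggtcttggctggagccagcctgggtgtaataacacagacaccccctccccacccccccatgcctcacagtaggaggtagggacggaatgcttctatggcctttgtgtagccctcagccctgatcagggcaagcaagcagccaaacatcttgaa
The Hells window held TTTCCCGC at -62, a match present in 1.07% of 32851 promoters of the same length, and the Dnmt1 window held TTTGGCGC at +34, present in 0.514%. CCAAT, found in 37.4% of promoters, occurred 3 times in the Dnmt1 window and at -150 and -107 in that of Uhrf1. Of the windows not shown, the first of Dnmt1 (2 CpG) held CCAAT 5 times, the second (12 CpG) no motif, and the first of Uhrf1 (12 CpG) CCAAT 3 times. The E2F motifs were thus in 1 of 3 Dnmt1 windows and in neither Uhrf1 window. No motif searched, TGACGT (7.51% of promoters) included, was in the 3 Dnmt3l windows. The single Hells window held 34 CpG and the Dnmt3l windows 6, 4 and 3, against a median of 7 (quartiles 3 and 20) over all promoters. Those shown for Dnmt1 and Uhrf1 held 33 each, which their choice by CpG fixed. Among the genes not shown, the Dnmt3b window (30 CpG) and the 3 Dnmt3a windows (46, 47 and 18 CpG) held no motif searched, though both genes were on in SPG. Tet2 and Tet1, scarce in SPG, held 57 and 17 CpG, and Tet3 held 22. No link of motif or CpG with level is therefore read from the windows shown. Reads from 3′ ends do not show which start is in use.

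In whole testis the cells were clustered without the 9 genes or their pathway lists, and clusters were named by markers. Spermatogonia-like cells numbered 127. Of the meiotic classes, leptotene/zygotene-like held 246 cells, pachytene-like 2848 and meiotic division-like 3602. Strains were pooled in each class: 1255 pachytene-like cells came from Mlh3-/- and 854 from wild-type libraries, and 580 of 708 Leydig-like cells from Mlh3-/- ones. Levels and library ranges by class below are thus not those of wild-type testis alone. Spermatids made up 5246 elongating and 2963 round spermatid-like cells, and 19556 cells stayed in unnamed clusters. Names rest on marker genes alone, so classes may differ from those of the study. Leptotene/zygotene-like cells held 20455 CPM of elongating spermatid markers beside 13415 CPM of their own, Sertoli-like cells 19755 beside 15537 CPM, spermatogonia-like cells 6351 beside 5305 CPM and pachytene-like cells 3567 beside 23725 CPM; the part of this RNA in the comparisons was not tested. Between 27.0% (Tet2) and 80.1% (Dnmt3l) of a gene's whole-testis UMIs lay in named classes. The 5 libraries with at least 10 spermatogonia-like cells were Cul4a-/- 1 and 2 and Mlh3-/- 2, 5 and 6, with no wild-type library among them. Stages were compared within libraries by edgeR's quasi-likelihood test on summed counts, with Benjamini-Hochberg adjustment over all genes, and a gene with under 5 UMIs over both stages was not tested. On simulated counts the step from spermatogonia-like to leptotene/zygotene-like cells recovered few of the changes put in, far fewer than the other comparisons simulated, so a gene that missed the threshold in that step may still differ.

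Adult spermatogonia-like cells had the highest level of every maintenance gene among the germ-cell classes. Dnmt1 was at 264 and 354 CPM in the Cul4a-/- libraries and at 321, 569 and 458 CPM in the Mlh3-/- ones, and over all 127 cells at 374 CPM (305 to 454). In leptotene/zygotene-like cells its lowest, median and highest library stood at 0, 0 and 84.9 CPM (n = 9, 5 of them at 0), and in pachytene-like cells at 10.6, 39.5 and 185 CPM (n = 19). The spermatogonia-like libraries all lay above both. In meiotic division-like cells the pooled level was 6.48 CPM, in round spermatid-like 3.15 CPM and in elongating spermatid-like 2.28 CPM. A Dnmt1 UMI was seen in 35.4% of spermatogonia-like cells (median 1344 UMIs a cell) and in 0.324% of elongating spermatid-like cells (median 850).

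Dnmt1 fell on leaving the spermatogonial stage, by 3.09 on the log2 scale (SE 0.48, adjusted p = 3.44e-08), and that call held in 33 of 33 alternatives. It was 1 of 3 genes called of the 6 with enough UMIs, against 4.01% of all genes in the same comparison (2.38% higher, 1.62% lower in spermatogonia-like cells); the others were Uhrf1 (1.97, SE 0.55, adjusted p = 0.0135) and Dnmt3b. The Uhrf1 call held in 24 of 33 alternatives and was lost without Mlh3-/- 2 (adjusted p = 0.224), Mlh3-/- 5 (0.149) or WT 4 (0.0508). Dnmt1 was then 2.35 higher in pachytene-like than in meiotic division-like cells (SE 0.22, adjusted p = 1.23e-25), where 41.5% of all genes were called (21.6% higher, 19.9% lower in pachytene-like cells). Between leptotene/zygotene-like and pachytene-like cells the fit put Dnmt1 higher in the latter (-1.36, adjusted p = 0.0260), against 23.0% of all genes called (6.71% higher, 16.3% lower in leptotene/zygotene-like cells). Of 34 alternatives 24 called a difference, among them the reversed one given next. With coarser clusters, in which 1317 pachytene-like cells took the leptotene/zygotene name, the difference turned to 0.73 (adjusted p = 2.04e-05), so no direction is read from it. The call was also lost without Mlh3-/- 1, Mlh3-/- 2, Mlh3-/- 6 or WT 11, at -1.21 to -1.27 (adjusted p = 0.05003 to 0.0675).

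Hells was still abundant in early meiosis. In spermatogonia-like cells it was at 624 and 835 CPM in the Cul4a-/- libraries and at 1105, 1264 and 916 CPM in the Mlh3-/- ones. In leptotene/zygotene-like cells the libraries ran from 0 over a median of 482 to 1149 CPM, overlapping the spermatogonia-like range, and in pachytene-like cells from 14.7 over 37.3 to 66.4 CPM. The first step gave a difference of 0.50 (SE 0.22, adjusted p = 0.236), which missed the threshold. Of 33 alternatives 2 called it, with an adjusted p down to 1.14e-29. Pooled over cells, Hells stood at 962 CPM (850 to 1085) in spermatogonia-like and 608 CPM (523 to 703) in leptotene/zygotene-like cells. Those intervals cover counting error only. Hells then fell by 2.85 from leptotene/zygotene-like to pachytene-like cells (SE 0.20, adjusted p = 9.94e-43), with the median of all genes at -0.61, and the call held in 34 of 34 alternatives. It fell further by 1.89 into meiotic division-like cells (SE 0.20, adjusted p = 6.62e-21) and by 1.09 into round spermatid-like cells (SE 0.30, adjusted p = 0.000660), where 46.5% of all genes were called (23.3% higher, 23.2% lower in division-like cells). From round to elongating spermatid-like cells it was higher again (-1.66 for round minus elongating, SE 0.35, adjusted p = 9.82e-06), at pooled levels of 3.74 and 6.83 CPM.

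Uhrf1 reached furthest into meiosis of the 3. Its spermatogonia-like libraries stood at 144 and 50.6 CPM (Cul4a-/-) and 232, 253 and 102 CPM (Mlh3-/-), the leptotene/zygotene-like ones between 0 and 104 CPM with a median of 0. Pachytene-like libraries lay at 36.1, 73.8 and 111 CPM and meiotic division-like ones at 6.36, 50.4 and 122 CPM (lowest, median and highest), and the 2 ranges overlap. Round spermatid-like libraries ran from 0 over 6.09 to 31.3 CPM. The fall from division-like to round spermatid-like cells was 2.34 (SE 0.19, adjusted p = 2.46e-34; 34 of 34 alternatives). The 0.37 between pachytene-like and division-like cells (SE 0.14, adjusted p = 0.0174) held in 16 of 34 alternatives and turned to -0.0752 (adjusted p = 0.787) with coarser clusters. It was lost without Cul4a-/- 1 or 2, Mlh3-/- 1, or WT 1, 4, 6 or 11, at 0.19 to 0.32 (adjusted p = 0.0581 to 0.288). Against pachytene-like cells, leptotene/zygotene-like cells were 1.62 lower (adjusted p = 0.00118), which turned to 0.28 (adjusted p = 0.101) with the coarser clusters. Of 34 alternatives 31 called this difference, and the highest adjusted p was 0.398. In elongating spermatid-like cells Uhrf1 was called higher than in round ones (-0.97 for round minus elongating, adjusted p = 0.00229), but with library sizes unscaled the difference was -0.24 (adjusted p = 0.575), and without WT 6 it was -0.65 (adjusted p = 0.0749). That call held in 31 of 34 alternatives, with a highest adjusted p of 0.743.

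Dnmt3l had its highest pooled levels in the division-like and round spermatid-like classes. It had 0 UMIs in each of the 5 spermatogonia-like libraries, and pachytene-like libraries ran from 0 to 5.08 CPM with a median of 0. Pooled, spermatogonia-like and leptotene/zygotene-like cells had 1 UMI each, with intervals up to 20.2 and 18.4 CPM. Both overlap that of division-like cells (15.2 to 20.5 CPM), so these 2 early classes are not placed below it. Meiotic division-like libraries stood at 0, 19.7 and 51.1 CPM, round spermatid-like ones at 7.05, 23.9 and 74.7 CPM and elongating spermatid-like ones at 0, 3.72 and 32.4 CPM (lowest, median, highest). All 15 round spermatid-like libraries lay above all 19 pachytene-like ones. Dnmt3l rose from pachytene-like to division-like cells (-3.31 for pachytene minus division, SE 0.34, adjusted p = 4.60e-21; 33 of 33 alternatives) and fell by 1.78 from round to elongating spermatid-like cells (SE 0.27, adjusted p = 7.66e-10; 33 of 33), where 33.8% of all genes were called (14.7% higher, 19.0% lower in round spermatid-like cells). The step from division-like to round spermatid-like cells was -0.63 (SE 0.17, adjusted p = 0.000715), and -0.34 (adjusted p = 0.0907) with library sizes unscaled. It was -0.25 (adjusted p = 0.303) without Cul4a-/- 1 and -0.36 (adjusted p = 0.0972) without Cul4a-/- 2. Of round spermatid-like cells 7.12% had a Dnmt3l UMI (median 1947 UMIs a cell), against 0.527% of pachytene-like cells (median 2456), so the class of lower depth had the larger share.

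Dnmt3a and Dnmt3b were highest in spermatogonia-like cells and parted afterwards. Dnmt3a stood at 72.0 and 25.3 CPM in the Cul4a-/- libraries and at 285, 221 and 50.9 CPM in the Mlh3-/- ones, from 1 to 16 UMIs each. Leptotene/zygotene-like libraries ran from 0 over 40.2 to 104 CPM and overlap that range (difference 1.03, SE 0.59, adjusted p = 0.489). It fell by 2.24 into pachytene-like cells (SE 0.65, adjusted p = 0.00340; lost without Cul4a-/- 1, adjusted p = 0.202, and in wild-type libraries alone, adjusted p = 0.549), to a pooled 3.54 CPM. It was then higher in division-like cells (-1.11 for pachytene minus division, SE 0.38, adjusted p = 0.0104; 31 of 34 alternatives; lost without Cul4a-/- 2, -0.51, adjusted p = 0.395, by DESeq2, adjusted p = 0.0713, and in wild-type libraries alone, adjusted p = 0.623). Round spermatid-like cells had 9.46 CPM, above the division-like cells at 5.32 CPM (-1.20 for division minus round, SE 0.28, adjusted p = 4.78e-05; 34 of 34 alternatives).

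Dnmt3b stood at 216 and 127 CPM (Cul4a-/-) and 89.1, 63.2 and 50.9 CPM (Mlh3-/-) in spermatogonia-like cells, from 1 to 9 UMIs each. All 9 leptotene/zygotene-like libraries were at 0, which over the class allows up to 9.92 CPM, and the difference was called (22 against 0 UMIs, adjusted p = 0.000390; 0.0613 without Cul4a-/- 1). Pachytene-like cells had 3.74 CPM, more than division-like cells at 0.483 CPM (2.76, SE 0.58, adjusted p = 9.56e-06; 33 of 34 alternatives, the call being lost in wild-type libraries alone, 1.51, adjusted p = 0.2005). Later classes held 1 to 6 UMIs.

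Tet3 had its highest pooled level in spermatogonia-like cells, at 48.0 and 75.9 CPM (Cul4a-/-) and 71.3, 158 and 50.9 CPM (Mlh3-/-), from 1 to 5 UMIs each. No germ-cell class after leptotene/zygotene-like cells, themselves at 9.92 CPM (3 UMIs), passed 0.885 CPM. The step to leptotene/zygotene-like cells was 2.80 (SE 1.16, adjusted p = 0.192) and missed the threshold. Among somatic cells Tet3 had 13 UMIs (13.2 CPM; 0 to 130 CPM over libraries) in Leydig-like and 4 UMIs (8.71 CPM) in Sertoli-like cells. Tet2 had 0 UMIs in the 127 spermatogonia-like cells, which allows up to 10.9 CPM, 13 UMIs (28.3 CPM, 15.1 to 48.4) in 371 Sertoli-like cells and 13 UMIs (13.2 CPM, 7.05 to 22.6) in 708 Leydig-like cells. Since 27.0% of its UMIs lay in named classes and sorted SPG held 8, Tet2 is not assigned to a cell type. Tet1 had at most 8 UMIs in a germ-cell class, so its course could not be followed.

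Against Sertoli-like cells, the supporting cells of the tubule, 5 of 7 tested genes were higher in spermatogonia-like cells and Tet2 was lower, with 14.2% of all genes called (4.67% higher, 9.56% lower). Hells was higher by 4.56 (SE 0.34, adjusted p = 4.77e-37), Dnmt1 by 3.75 (SE 0.46, adjusted p = 5.28e-14), Dnmt3b by 2.72 (adjusted p = 0.00418), Tet3 by 2.58 (adjusted p = 0.0430) and Uhrf1 by 1.98 (adjusted p = 0.00134). The Tet2 call rests on 0 against 13 UMIs (adjusted p = 0.0377). Dnmt3a differed by 0.99 (SE 0.50, adjusted p = 0.217). The Hells and Dnmt1 calls held in 33 of 33 alternatives, and those of Tet2 and Tet3 in 23 of 31 and 19 of 32. Those of Dnmt3b and Uhrf1 held in 31 of 33 alternatives each. Dnmt3b was lost without Cul4a-/- 1 (adjusted p = 0.123) and Uhrf1 without Mlh3-/- 2 (adjusted p = 0.0711). The highest adjusted p of Uhrf1 over the alternatives was 0.110. Tet2 was lost without Cul4a-/- 1 or 2 or Mlh3-/- 2, 5 or 6 (adjusted p = 0.0502 to 0.507), and Tet3 without Cul4a-/- 2, Mlh3-/- 1, 2 or 5, or WT 1, 4, 6, 8 or 10 (adjusted p = 0.0503 to 0.268).

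**Figure D3:**
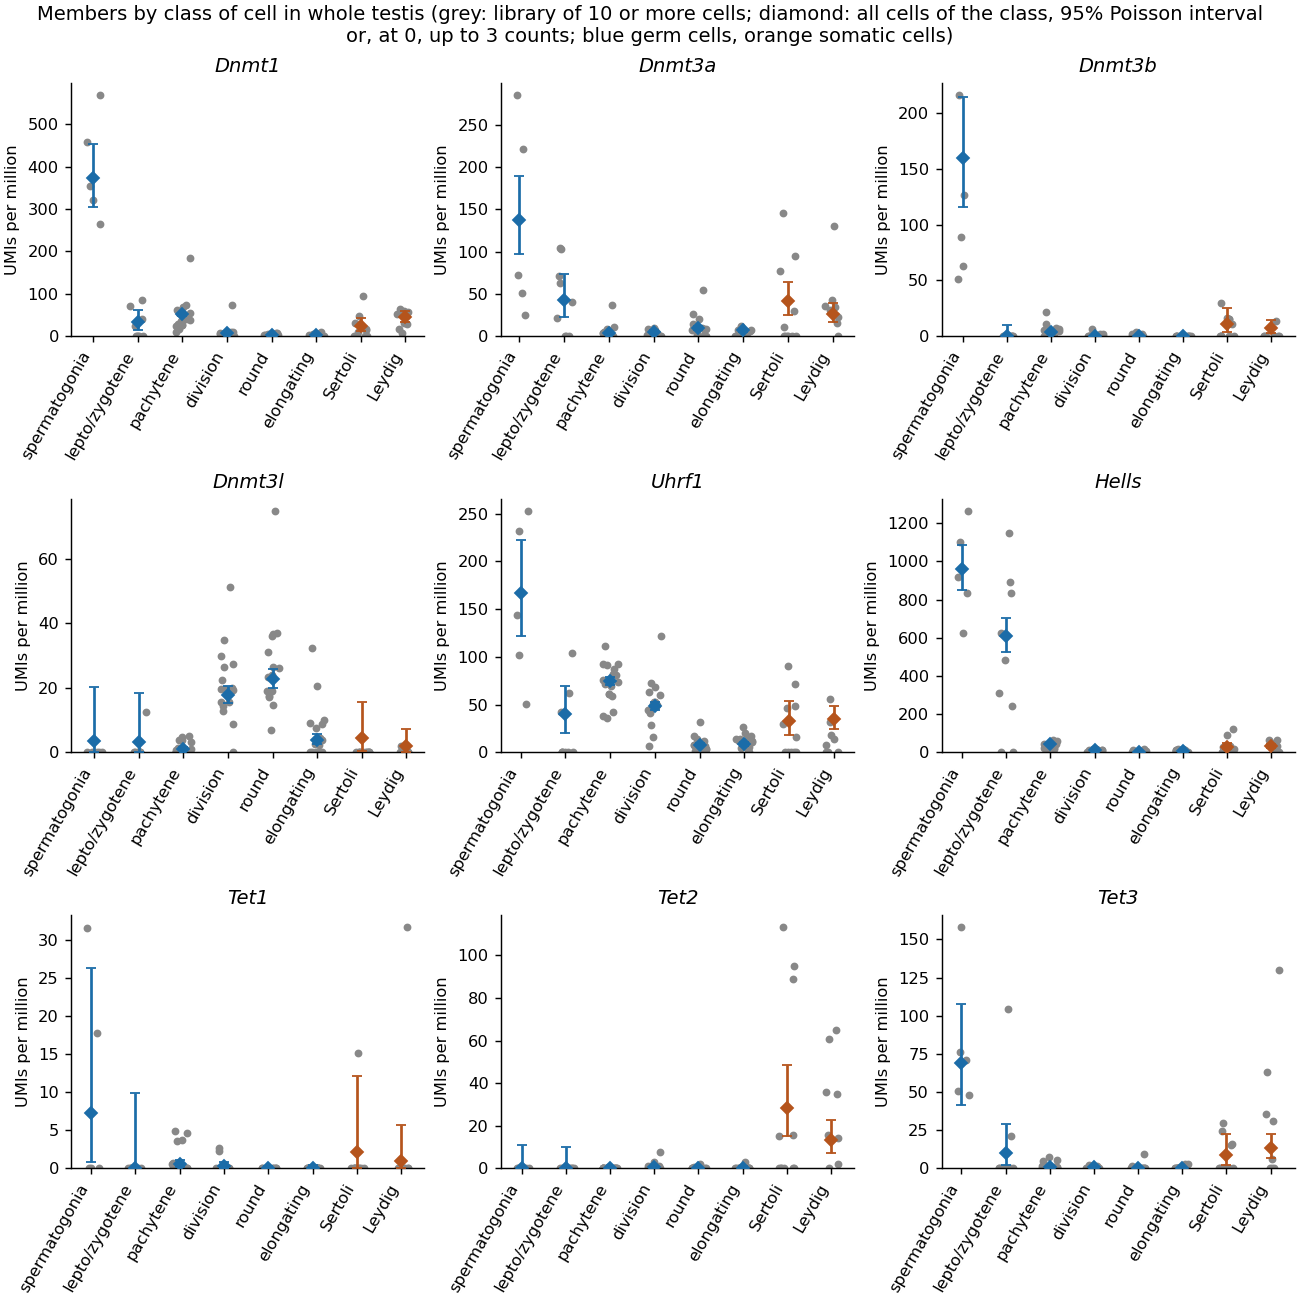
Level (y axis, CPM) of each gene by class of cell in whole testis (x axis): grey points are single libraries that had 10 or more such cells, diamonds all cells of the class with a 95% Poisson interval (up to 3 counts where none was seen), blue for germ cells and orange for somatic cells. Hells stays high into leptotene/zygotene-like cells, Uhrf1 into division-like cells, Dnmt3l peaks at the division-like and round spermatid-like classes, and Tet2 is seen in Sertoli-like and Leydig-like cells.

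Genes that work with these enzymes were counted by list. Of 28 partners and readers of methylation (27 tested), 3 were higher and 1 lower in spermatogonia-like than in leptotene/zygotene-like cells (list median 0.39, all genes 0.03), beside 2.38% and 1.62% of all genes, among them Cdca7, whose product activates HELLS, at 4.03 (SE 0.67, adjusted p = 3.70e-07). Cdca7 was also 5.28 above Sertoli-like cells (SE 0.72, adjusted p = 3.29e-11), where Uhrf2, the relative of Uhrf1, was lower (-2.88, SE 0.65, adjusted p = 0.000232). Of the 28 replication genes 7 were higher and none lower in spermatogonia-like than in leptotene/zygotene-like cells (median 1.11, all genes 0.03), beside 2.38% and 1.62% of all genes. Against Sertoli-like cells 19 were higher and none lower (median 2.02, all genes -0.16), beside 4.67% and 9.56% of all genes. Among partners, Cxxc5, which binds unmethylated CpG, rose with Dnmt3l from pachytene-like to division-like cells (-4.22 for pachytene minus division, SE 0.16), where 10 of 27 partners were higher and 8 lower in pachytene-like cells, beside 21.6% and 19.9% of all genes. The methyl donor list, enzymes that make S-adenosylmethionine, had 7 of 15 higher and 3 lower in pachytene-like than in division-like cells.

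The Mlh3-/- testis, known for germ cells that stop in meiosis, held more of the early messages and less Dnmt3l. Its 2786 cells that passed the filters (of 11210 barcodes) included 0 round and 0 elongating spermatid-like cells, and its summed elongating spermatid markers ran from 773 to 1450 CPM, against 34649 to 63364 CPM in wild-type libraries. In whole testis fewer cells of a type and less RNA per cell cannot be told apart. Summed spermatogonial markers were 164 to 1210 CPM against 57.7 to 206, Sertoli markers 1552 to 8597 CPM against 315 to 901, Leydig markers 1665 to 10797 CPM against 0 to 405, macrophage markers 86.8 to 901 CPM against 14.1 to 44.4 telocyte markers 248 to 415 CPM against 5.63 to 119 and leptotene/zygotene markers 2451 to 6169 CPM against 1496 to 2046, while peritubular myoid markers were 45.5 to 276 CPM against 228 to 377; their part in the differences below was not tested.

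Dnmt1 stood at 6.70, 13.7 and 17.4 CPM in wild-type libraries (lowest, median, highest; 12.5 ± 3.24, SD, n = 11). The 6 Mlh3-/- libraries gave 72.0, 139, 74.5, 69.9, 56.9 and 67.6 CPM (80.0 ± 29.7), all above every wild-type library. Hells stood at 12.7, 16.7 and 33.8 CPM in wild-type libraries (19.3 ± 7.84), against 57.4, 279, 141, 79.8, 84.2 and 58.3 CPM (117 ± 85.1), also with no overlap. Uhrf1 lay at 20.8, 36.3 and 42.8 CPM (36.3 ± 6.74) against 78.1, 75.8, 48.4, 70.3, 63.8 and 75 CPM (68.6 ± 11.1). Dnmt3l went the other way, from 5.46, 13.2 and 22.5 CPM in wild-type (14.0 ± 4.39) to 1.22, 0, 1.06, 0, 1.04 and 1.18 CPM, below every wild-type library.

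Dnmt3b was at 0, 1.58 and 4.53 CPM in wild-type and at 12.2, 29.3, 10.6, 7.86, 8.28 and 6.07 CPM in Mlh3-/- libraries, without overlap. Dnmt3a ran from 3.30 over 4.68 to 25.4 CPM in wild-type, the highest being the enzymatically dissociated WT 1, and gave 20.7, 100.2, 41.5, 15.3, 16.6 and 13.0 CPM in Mlh3-/-, so the groups overlap. Tet2 ran from 0 over 0.529 to 2.82 CPM against 6.10, 26.9, 17.6, 5.11, 6.55 and 7.92 CPM, and Tet3 from 0 over 0.397 to 1.31 CPM against 7.32, 29.3, 14.4, 8.64, 6.55 and 2.70 CPM. In both the Mlh3-/- libraries were higher than every wild-type one. Tet1 was at 0 in 7 of 11 wild-type libraries and reached 4.26 CPM in Mlh3-/-, with overlap. Ranges that did not overlap were seen for 7 of 9 genes, 6 above and 1 below wild-type, against 32.7% of all genes (22.0% above, 10.6% below).

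By the edgeR quasi-likelihood test 8 of the 9 genes were called, 7 higher and 1 lower, where 59.1% of all genes were called (27.5% higher, 31.6% lower). Dnmt1 was higher by 1.71 (SE 0.18, adjusted p = 7.10e-10), Hells by 1.64 (SE 0.22, adjusted p = 1.30e-07), Dnmt3b by 1.75 (SE 0.32, adjusted p = 1.47e-05), Dnmt3a by 1.39 (SE 0.31, adjusted p = 0.000265), Tet2 by 3.32 (SE 0.46, adjusted p = 6.28e-08) and Tet3 by 3.04 (SE 0.44, adjusted p = 9.87e-08). Dnmt3l was lower (-4.61, SE 0.33, adjusted p = 1.10e-14). These differences are after TMM scaling, which equalises most genes between libraries; with library sizes unscaled the median of all genes moved from -0.02 to 0.71 and Dnmt1 to 2.60, Hells to 2.58 and Dnmt3l to -3.89. Uhrf1 is the gene whose call turns on that choice, at 0.06 (SE 0.17, adjusted p = 0.781) with TMM and 0.91 (adjusted p = 3.54e-06) without. In cells that passed every filter Uhrf1 was called (0.49, adjusted p = 0.00714) and Dnmt3a was not (0.86, adjusted p = 0.116). Tet1 was called at 1.81 (SE 0.63, adjusted p = 0.0127), but not without Mlh3-/- 3 (adjusted p = 0.0554), by DESeq2 (adjusted p = 0.0505), in cells that passed every filter (adjusted p = 0.146) or with the replicate number as a block (adjusted p = 0.193).

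Within HiSeq libraries of mechanical dissociation the differences were 1.59 for Dnmt1, 1.59 for Hells, 1.26 for Dnmt3a and -4.63 for Dnmt3l, each still called. The p-values measure the spread between libraries, and the study's text gives each wild-type library its own animal, while the labels do not say this of the other strains, in which Mlh3-/- 2 and 3 share an age of 8 months 30 days.

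**Figure D4:**
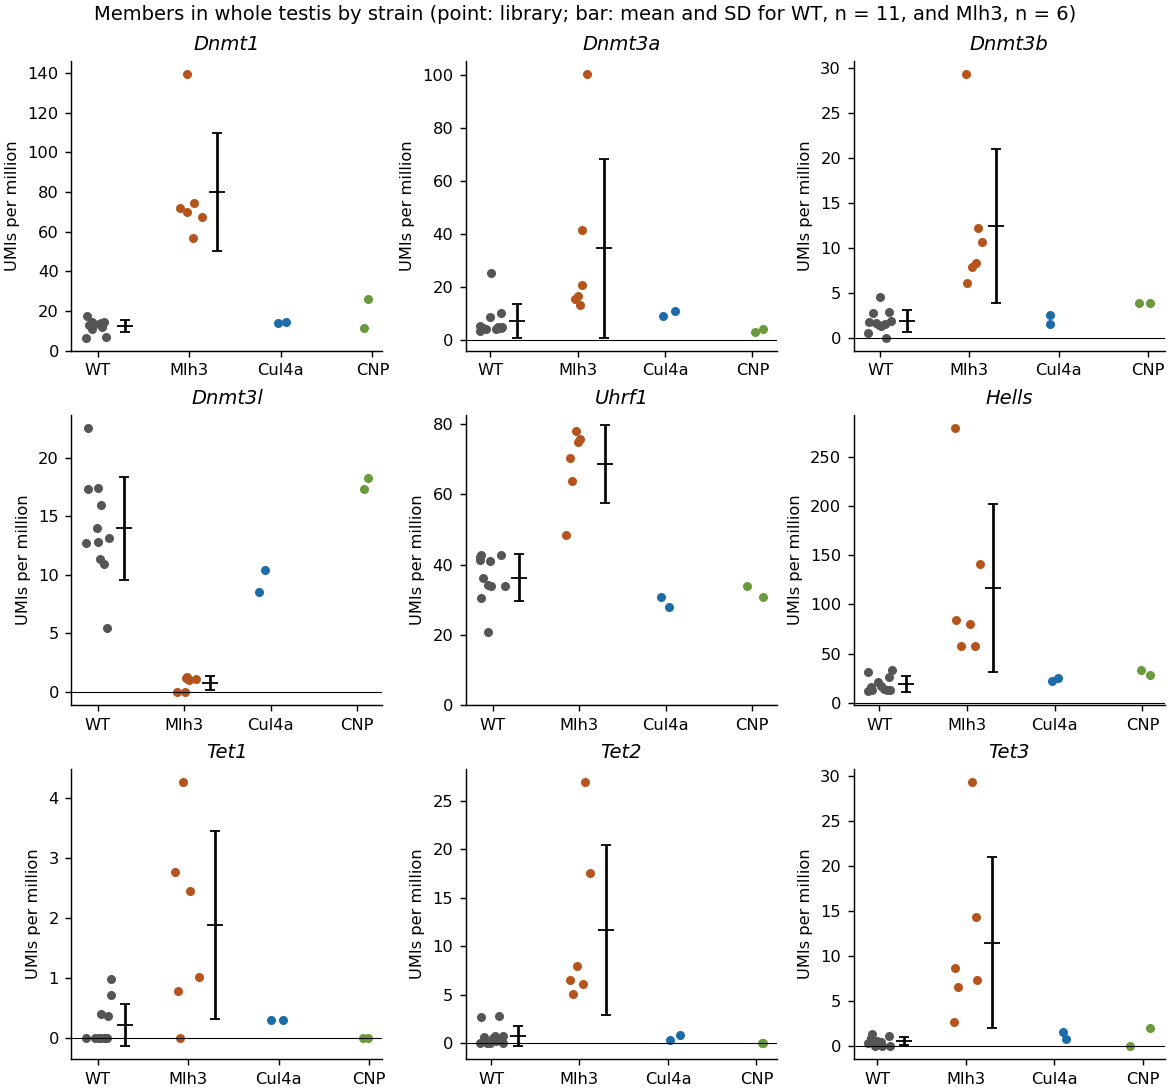
Level (y axis, CPM) of each gene in whole-testis libraries of 4 strains (x axis), 1 point a library, with the mean and SD for WT (n = 11) and Mlh3 (the Mlh3-/- strain, n = 6). The Mlh3-/- points lie above all WT points for Dnmt1, Dnmt3b, Uhrf1, Hells, Tet2 and Tet3 and below them for Dnmt3l, and overlap them for Dnmt3a and Tet1.

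Dnmt1 was also higher within the pachytene-like class of Mlh3-/- testis. In pachytene-like cells the 9 wild-type libraries ran from 17.0 over 27.3 to 40.4 CPM and the 6 Mlh3-/- libraries gave 55.6, 185, 73.2, 68.1, 54.7 and 61.8 CPM, with no overlap. The difference was 1.25 (SE 0.22, adjusted p = 3.24e-05) and held in 32 of 32 alternatives, against 15.6% of all genes called (6.51% higher, 9.05% lower). Hells ran from 14.7 over 33.1 to 43.5 CPM in wild-type and gave 22.2, 66.4, 54.9, 58.7, 55.3 and 37.3 CPM in Mlh3-/- pachytene-like cells, an overlapping range. Its difference of 0.61 (SE 0.22, adjusted p = 0.0477) was called in 21 of 32 alternatives. It was lost without Cul4a-/- 2, Mlh3-/- 3, 4 or 5, or WT 3, 5, 6 or 11, at 0.52 to 0.63 (adjusted p = 0.0501 to 0.146). The class need not hold the same mix of stages in both strains: Cxxc5, which rose from pachytene-like to division-like cells, was lower in the Mlh3-/- class (-4.97, SE 0.70, adjusted p = 4.17e-07), and the part of that mix in the Dnmt1 difference was not tested. Uhrf1 differed by 0.08 (SE 0.17, adjusted p = 0.820) between 679 and 219 UMIs. Dnmt3a differed by 1.71 (SE 0.79, adjusted p = 0.144) on 38 and 4 UMIs, and DESeq2 called it (adjusted p = 0.0455). Dnmt3l differed by -1.18 (SE 0.80, adjusted p = 0.352) on 7 and 6 UMIs.

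In the other 2 strains the test as set called no gene of the 9, and 1 alternative called Dnmt3a in Cul4a-/- whole testis (HiSeq mechanical libraries, 0.97, adjusted p = 0.0347). In Cul4a-/- whole testis Dnmt1 stood at 14.7 and 14.0 CPM, Hells at 25.9 and 22.4 CPM, Uhrf1 at 30.8 and 27.8 CPM and Dnmt3l at 8.52 and 10.5 CPM, all within the wild-type ranges. Tet3 in 1 of the 2 libraries, at 1.56 CPM, lay above every wild-type library. The edgeR test called 0 of 9 (3.94% of all genes, 3.21% higher and 0.732% lower), with Dnmt3l alone under 0.05 before adjustment (-0.56, p = 0.0495, adjusted p = 0.276), and DESeq2 called 0 with 0 genes at an unadjusted p under 0.05. In CNP eGFP BAC TRAP testis Dnmt1 stood at 11.7 and 26.0 CPM and Hells at 33.9 and 27.9 CPM. For Dnmt1, Hells and Tet3 1 of the 2 libraries lay above every wild-type library, and for Dnmt3a 1 lay below. There too edgeR called 0 of 9 (0.578% of all genes, 0.0685% higher and 0.509% lower), with 0 at an unadjusted p under 0.05 by edgeR or DESeq2. In pachytene-like cells of Cul4a-/- testis 0 of 7 tested genes were called by edgeR (11% of all genes, 5.39% higher and 5.63% lower); Hells was under 0.05 before adjustment (0.54, SE 0.27, adjusted p = 0.204), and DESeq2 called 0 with 2 genes under 0.05 before adjustment.

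The disrupted genes check the labels only in part, because a 3′ tag can lie outside a deletion. Mlh3 itself was lower in Mlh3-/- testis (-0.73, SE 0.26, adjusted p = 0.0174). Cul4a was not lower in Cul4a-/- testis but 0.61 higher (SE 0.28, adjusted p = 0.243), which missed the threshold. Cnp was 1.19 higher in the CNP line (SE 0.83, adjusted p = 0.787) and missed it too.

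The genes whose levels were most like each member are given as a description over 28 sums (the 4 sorted libraries and the larger strain and class sums), which share libraries and differ in depth, among 9927 genes. Hells was most like Clspn (Pearson r = 0.972) and Lig1 (0.966), both of the replication fork, and Dazl (0.954), a germ-cell RNA-binding protein. Dnmt1 was most like Rcc2 (0.951), Hspa14 (0.923) and Etaa1 (0.922), and Uhrf1 like Espl1 (0.917), which encodes separase, Toe1 (0.903) and Dnaja2 (0.896). Dnmt3a was most like Taf1 (0.955), Huwe1 (0.949) and Kmt2a (0.945), and Dnmt3b like Mex3a (0.956), Cenpa (0.953) and Sall4 (0.953). Dnmt3l was most like 4930468A15Rik (0.901), Ccdc184 (0.900) and Adam26a (0.896). Tet1 was most like Gm23935 (0.816), Tet2 like Fndc3b (0.878) and Tet3 like Fbxo31 (0.95). Between the 9 genes themselves, r was highest for Dnmt3a with Tet3 (0.859), then for Dnmt1 with Dnmt3b (0.833). Tet3 had 0.813 with Dnmt3b and 0.802 with Dnmt1, and Dnmt1 had 0.794 with Uhrf1. The lowest was -0.55, for Dnmt1 with Dnmt3l.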

How the data were processed

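Dissociated testis cells were profiled by Drop-seq in 25 libraries (4 sorted, 21 whole testis). The deposited values are raw UMI counts per gene and cell barcode, which the authors made with the Drop-seq pipeline after alignment with STAR 2.5.3a to mm10 (GRCm38); barcodes per library were chosen by the authors, and strand use in counting is not given in the sources used here. No other file or column was used. The 9 genes and all lists were chosen with earlier results of these data known.

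Counts were summed per library over every barcode for whole testis and sorted populations, with mitochondrial genes left out. For classes, cells had at least 200 UMIs and 50 genes, and were not over 1 SD below their library's mean in either. Their scaled mt-Rnr2 level was at most 2, and 36619 of 48642 were kept (2786 of 11210 in Mlh3-/- libraries). They were clustered without the 9 genes and the pathway lists. Square-root-scaled counts gave 40 principal components (scipy 1.17.1). A graph of shared neighbours (20 neighbours a cell) was then split by leidenalg 0.10.2 at Leiden resolution 2. Clusters took the name of the marker list with the largest mean fold, provided that at least 3 of its genes and 50 genes in all were 2-fold higher, that it held 20 cells or more, that no list of a class not adjacent in development came within 0.25 (log2) or had more of the 10 leading genes, and that a shallow cluster had a marker among those 10. No doublet caller was run.

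Levels carry exact Poisson (95%) intervals and shares exact Clopper-Pearson ones, which cover counting error only; a count of 0 allows 3 counts. Tests used edgeR 4.0.16 (glmQLFit, glmQLFTest, TMM, at least 5 counts, Benjamini-Hochberg over all genes, threshold 0.05) under R 4.3.3: strains in 1 fit of the 21 libraries, or of those with at least 10 pachytene-like cells, and stages in 1 fit with library as a factor over libraries with at least 10 cells of a class. The SE given is the absolute log2 difference divided by the square root of the test's F statistic, so it was derived from the test. The scripts were tested on simulated data, where the first stage step recovered few changes. Alternatives were DESeq2 1.42.0, TMMwsp, other count and cell filters, mitochondrial genes kept, Leiden resolution 1, clusters with the 9 genes and the pathway lists kept, wild-type or HiSeq mechanical libraries only, each library left out, and the replicate number as a block; the earlier quasi-likelihood fit of edgeR, unscaled library sizes and mechanical libraries were added after the data were seen. Replicate numbers were taken as names only, since same-numbered libraries did not deviate together (10 pairs, r from -0.25 to 0.28).

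The text names the 9 genes, at most 3 genes of a list with the smallest adjusted p in a comparison, the 3 genes most like each of the 9 (Pearson r of log2(CPM + 10)) and the disrupted genes. Loci are from GENCODE vM21 and promoters from RefSeq (GRCm38.p6); all 9 genes matched by symbol.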

Additional observations from a re-analysis of the deposited data

Results flagged for a closer look

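In 10 of 31 groups of 4 to 10 libraries, the lowest or highest library stood further from the others than Dixon's 95% limit; chance alone gives about 1 in 20 such groups of continuous values, a rate that does not apply to the 4 groups in which every other library was at 0. The library Mlh3-/- 2 gave several of them. It was the smallest of its strain with 298 barcodes, with Dnmt1 at 139 CPM (57 UMIs; the next library 74.5 CPM), Dnmt3a at 100.2 CPM (41 UMIs; next 41.5 CPM) and Dnmt3b at 29.3 CPM (12 UMIs; next 12.2 CPM) in whole testis. Without that library the calls of all 3 genes remained. In Leydig-like cells, the high libraries were Mlh3-/- 2 for Dnmt3a (130 CPM, 2 UMIs), Mlh3-/- 1 for Dnmt3b (13.6 CPM, 7 UMIs) and for Dnmt3l (1.94 CPM, 1 UMI), and Mlh3-/- 3 for Tet1 (31.6 CPM, 1 UMI). In leptotene/zygotene-like cells they were Cul4a-/- 1 for Dnmt3l (12.5 CPM, 1 UMI) and Mlh3-/- 6 for Tet3 (104 CPM, 1 UMI), and in spermatogonia-like cells Mlh3-/- 5 for Tet3 (158 CPM, 5 UMIs). Those 7 rest on 1 to 7 UMIs each. What sets these libraries apart was not tested.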

How the results depend on the processing

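Of the recomputed counts of called genes, 350 stayed within 1.5 times the main count and 19 did not. The recomputed values of single genes were differences and, for sorted spermatogonia, levels in CPM. Of these values 1146 stayed the same, differences in direction and side of the threshold and levels within the Poisson interval of the main setting. Another 107 differences fell short of the threshold, 11 passed it and 3 reversed. The other 9 values were levels that left that Poisson interval. No cause was tested. Shallow classes limit Tet1, Tet2 and all comparisons of spermatogonia-like cells, which rest on 5 libraries.

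The number of the 9 genes called moved as follows: 1 in Cul4a-/- whole testis in HiSeq mechanical libraries (Dnmt3a, 0.97, adjusted p = 0.0347); 5 for spermatogonia-like against leptotene/zygotene-like cells at Leiden resolution 1; 2 without TMM and 1 in wild-type libraries for leptotene/zygotene-like against pachytene-like; 3 in wild-type libraries for pachytene-like against division-like; 3 with filterByExpr for division-like against round spermatid-like; 3 in HiSeq mechanical libraries against Sertoli-like cells; and 1 for Mlh3-/- pachytene-like cells with the earlier quasi-likelihood fit, the replicate block and Leiden resolution 1. At resolution 1, Dnmt1 (0.73) and Uhrf1 (0.28) reversed between leptotene/zygotene-like and pachytene-like cells, as did Uhrf1 (-0.0752) between pachytene-like and division-like cells. DESeq2 called 2 in the first stage step (Dnmt3b without an adjusted p), 4 for pachytene-like against division-like (Dnmt3a and Uhrf1 lost) and 3 against Sertoli-like cells (Dnmt3b lost, adjusted p = 0.0591; Tet2 and Tet3 without an adjusted p). Wild-type libraries alone hold too few spermatogonia-like cells for a fit.

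With each library left out, the counts ran from 7 to 8 for Mlh3-/- whole testis, 0 to 0 for Cul4a-/-, for CNP and for Cul4a-/- pachytene-like cells, 2 to 3 for the first stage step, 3 to 4 for the second, 4 to 6 for the third, 4 to 5 for division-like against round spermatid-like and 2 to 3 for the last, 3 to 6 against Sertoli-like cells and 1 to 2 in Mlh3-/- pachytene-like cells. With the replicate number as a block, 7 genes were called in Mlh3-/- whole testis (Tet1 lost, adjusted p = 0.193) and 1 in its pachytene-like cells (Hells lost, 0.0884), and no other call changed in those comparisons; 2 of 10 libraries correlated best with their own number, so the block says nothing of a weaker effect.

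Genes called over the whole table moved by over 1.5 times in these: Cul4a-/- whole testis from 920 to 552 (DESeq2), 2642 (HiSeq mechanical), 451 (earlier fit), 1650 (mechanical) and 335 (block), and 247 to 1404 with a library left out; CNP from 135 to 705, 352, 285 (mechanical) and 406 (block), and 11 to 215; the first stage step from 869 to 4663 (resolution 1) and 2349 (the 9 genes and the pathway lists kept in the clustering), and 550 to 937; the second from 4991 to 2386 (wild-type); against Sertoli-like cells from 3086 to 4671 (UMI and gene filter only), and 2052 to 3379; Mlh3-/- pachytene-like from 2578 to 745 (block) and 1047 (resolution 1); Cul4a-/- pachytene-like from 1824 to 9 (block) and 36 (resolution 1), and 422 to 2528. Without TMM the higher and lower calls went from 6422 and 7382 to 10525 and 4763 (Mlh3-/- whole testis), 1456 and 3535 to 2965 and 1424 (second step), 5046 and 5041 to 6540 and 4288 (division-like against round spermatid-like), 3195 and 4130 to 6338 and 1591 (round against elongating spermatid-like), and 1013 and 2073 to 1454 and 1592 (Sertoli-like); with TMMwsp the first step went from 517 and 352 to 342 and 640.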

Other observations

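The list of base excision and demethylation genes, which runs from repair enzymes to Idh1 and Idh2 of 2-oxoglutarate metabolism, had 12 of 18 higher and 3 lower in Mlh3-/- whole testis (list median 1.23, all genes -0.02), and the methyl donor list 9 of 15 higher and 1 lower (median 0.93), beside 27.5% of all genes higher and 31.6% lower. Of 28 partners and readers 12 were higher and 7 lower (median 0.02), and of 28 replication genes 11 were higher and 6 lower (median 0.38). Without TMM 10525 genes were higher and 4763 lower, and the lists were not counted on that scale. Cxxc5, from the partner list, was lower there (-6.02, SE 0.33, adjusted p = 6.85e-17, edgeR) and in Mlh3-/- pachytene-like cells (-4.97, SE 0.70, adjusted p = 4.17e-07). Zbtb38, a methyl-CpG binding protein, was higher in Mlh3-/- whole testis (3.21, SE 0.28, adjusted p = 4.82e-12), and Usp7, a deubiquitinase that binds DNMT1 and UHRF1, was lower (-1.75, SE 0.16, adjusted p = 5.10e-11).

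Telocyte-like cells, 68 stromal cells of which 1 library held at least 10, had 4 Tet1 UMIs (74.3 CPM) and 3 Tet2 UMIs (55.7 CPM).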
